A study of Mus musculus with 80 samples.

Results

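The 10 genes described here are the immediate early genes Egr1, Egr2, Egr3, Fos, Fosb, Jun, Junb, Jund, Ier2 and Nr4a1, out of 41388 genes in the larger of the deposited tables. They were chosen by symbol, not by their values, and all 10 have a row in both deposited tables. The data are bulk RNA-seq libraries of hematopoietic stem cells (HSC) or of progenitor cells (HPC), all from mice of the B6 background. In the age series, HSC came from embryos at E14.5 (here E14, 3 libraries), E16.5 (here E16, 4) and E18.5 (here E18, 3), from the day of birth (P0, 4), from postnatal days 7 (P7, 4) and 14 (P14, 4), and from adults of 8 weeks (4). HPC of the age series came from E16 (3 libraries), P0 (4), P7 (4), P14 (5) and adults (4). In the genotype series, P0 HSC were wild type (5 libraries) or Ifnar -/- (4), and P0 HPC were wild type (4) or Ifnar -/- (4). P14 HPC of the genotype series carried Ifnar +/- with Flt3 +/+ (4 libraries), Ifnar +/- with Flt3 ITD/+ (4), Ifnar -/- with Flt3 +/+ (4) or Ifnar -/- with Flt3 ITD/+ (5), so no P14 group of that series had 2 intact Ifnar alleles. Ifnar encodes the receptor for type I interferons, and an internal tandem duplication (ITD) makes the receptor kinase Flt3 signal without its ligand. The labels name no organ, no surface markers for the sort and no pooling of animals, and nothing says that the libraries of a group came from separate animals, so p-values measure the spread between these libraries.

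Immediate early genes are transcribed within minutes of a growth factor, cytokine or stress signal, without new protein synthesis, from promoters that already hold SRF, CREB and related factors. Most encode transcription factors. Fos and Fosb pair with Jun, Junb or Jund to form AP-1, the Egr genes encode zinc finger factors downstream of the MAP kinase cascade, Nr4a1 encodes the orphan nuclear receptor Nur77, and Ier2 encodes a small nuclear protein. Egr1 and the Nr4a genes are known from earlier work as restraints on stem cell division in blood, and Jun, Junb and Fos take part in myeloid differentiation. Their transcripts also turn over fast, and they are known to be induced by handling and warming of cells during tissue dissociation and sorting.

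The RefSeq promoter table (build GRCm38) held 11 entries for 7 of the members, and the other 3 (Egr1, Egr3 and Ier2) had none. In the 120 bases upstream of the start, 5 of the 7 members (Fos, Fosb, Junb, Egr2 and Nr4a1) carried TGACG, the core of the CREB site, on either strand (CGTCA on the other), as did 11.7% of all 32851 promoter entries. Jun alone among the 7 carried TGACATCA on either strand (TGATGTCA on the other), a site that Jun and ATF2 dimers are known to bind, which 2.1% of all entries carried. For each motif a member counts if any of its entries matched, while the shares are per entry, so the 2 are not on the same footing. Both motifs start with TGAC but differ in the next base, so they cannot match at the same place. The sequences of Jun, Fosb, Fos and Nr4a1 are shown because the changes described below concern these genes, with the motif in capitals. They lie at chr4:95052223-95052342 (minus strand), chr7:19310046-19310165 (minus), chr12:85473770-85473889 (plus) and chr15:101266726-101266845 (plus). Counted from the start of the transcript, the sites begin at -45 in Jun, -60 in Fosb, -66 in Fos, and -69 and -40 in Nr4a1. A match describes the letters only and shows no binding.
Jun: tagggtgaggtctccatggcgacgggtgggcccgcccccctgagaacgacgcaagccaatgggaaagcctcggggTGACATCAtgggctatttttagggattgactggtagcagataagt
Fosb: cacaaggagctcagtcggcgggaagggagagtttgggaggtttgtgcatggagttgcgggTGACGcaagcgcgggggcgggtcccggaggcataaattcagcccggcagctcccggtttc
Fos: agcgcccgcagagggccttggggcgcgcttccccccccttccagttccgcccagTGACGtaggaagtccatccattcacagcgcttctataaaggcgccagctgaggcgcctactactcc
Nr4a1: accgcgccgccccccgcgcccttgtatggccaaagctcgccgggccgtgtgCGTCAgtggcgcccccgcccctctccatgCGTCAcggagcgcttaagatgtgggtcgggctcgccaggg

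Depth ran from 6.95 M to 25.382 M reads per library in the age series. In the genotype series it was 11.683 to 14.72 M reads for P0 HPC, 37.039 to 46.303 M reads for P0 HSC and 58.4 to 92.1 M reads for P14 HPC. Each library's log values had a median correlation over genes of 0.931 to 0.987 with the other libraries of its group. Markers followed the cell labels: 9 HSC markers together made 2749 to 4442 CPM (counts scaled to a common library total) in HSC of the age series and 1628 to 2826 CPM in HPC, and 4 progenitor markers made 382 to 1289 CPM in HSC and at least 2712 CPM in HPC. Reads of Ifnar1 were not lower in Ifnar -/- libraries (78.3 to 87.9 CPM against 53.8 to 79.3 CPM in wild-type P0 HPC, and 58.1 to 70.2 against 51.1 to 74.5 CPM in P0 HSC), so counts per gene do not check the deletion. In P14 HPC, Ifnar1 ran from 42.3 to 61.5 CPM in the Ifnar -/- groups and from 16.8 to 57.8 CPM in the Ifnar +/- groups. Several libraries stood apart. The first E16 HSC library was the highest of its group for 7 of the 7 members with at least 10 reads there, the third E14 HSC library for 6 of 7, and the third adult HPC library for 7 of 8. In wild-type P0 HSC of the genotype series, replicate 4 was the highest for 5 of 9 members and replicate 5 for 4 of 9. Among the Ifnar +/- Flt3 +/+ libraries of P14 HPC, replicate 1 had 6001 CPM of Mpo against 403 to 597 CPM in the other 3, and replicate 2 had 1090 CPM of Flt3 against 104 to 161 CPM. The Ifnar -/- Flt3 +/+ libraries had 609 to 1030 CPM of Flt3, a level near that of replicate 2.

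Not every member was measurable. Egr3 had a read in 6 of the 80 libraries and never more than 1, and a library without a read still allows up to 3. In HSC of the age series Egr2 had no read at E14 or P14 and at most 0.502 RPKM (reads per kilobase of exon, scaled to a common library total) elsewhere, and Fosb stayed at or under 0.494 RPKM. These 3 genes were left out of the HSC tests by the filter on low values, which 7 members passed. Egr2 and Egr3 were left out in HPC of the age series, Egr3 in P0 HSC of the genotype series, and Egr3 and Fosb in P14 HPC. P0 HPC of the genotype series left out Egr2, Egr3 and Fosb. Per length, adult HSC had 21.5 ± 4.06 RPKM of Ier2 (SD, n = 4), 4.33 ± 2.21 of Egr1, 2.38 ± 0.944 of Nr4a1, 2.36 ± 1.02 of Jun, 1.62 ± 0.704 of Junb, 1.17 ± 1.13 of Jund, 0.645 ± 0.377 of Fos and 0.174 ± 0.153 of Fosb. Ier2 stood clear of the rest, while from Egr1 to Fos each gap between neighbours in that order was smaller than the larger of their 2 SDs.

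In HSC, Egr1 was the member that changed with age after birth. It was low in fetal and newborn HSC and higher from P7 onward. At E14 the 3 libraries held 0.0237, 0.0471 and 0.669 RPKM of Egr1. At E16 they held 3.36, 0.6, 0.836 and 0.616, at E18 1.43, 1.12 and 1.4, and at P0 2.09, 0.585, 1.43 and 2.24 RPKM. Values rose to 3.07, 7.54, 7.62 and 8.26 RPKM at P7, and stood at 5.83, 3.6, 4.24 and 4.24 at P14 and at 7.64, 3.38, 3.06 and 3.26 in adults. Every library from P7 on was above every P0 library, and 1 fetal library (the first of E16) reached into the range of the later ages. From P0 to P7 Egr1 rose 3.47-fold (log2 difference 1.80 ± 0.38 SE, limma adjusted p = 0.00432) and was the only 1 of 7 members tested to pass, against 5.94% of all 13375 genes tested. No alternative and no left-out library ended this call (log2 difference 1.51 to 2.09, adjusted p 0.00234 to 0.0472). The 5 stroma markers summed to 3.93 to 10.1 CPM in P0 HSC and 14.8 to 77.2 CPM in P7 HSC, and their part in the Egr1 difference was not tested. P0 and P7 differ in the letter code that opens the library titles, so code and age cannot be told apart there. In HSC the code is shared within the fetal ages, within P0 and adults, and within P7 and P14. Any contrast across these sets has the same limit. Adult and P0 libraries share a code, and between them Egr1 was also higher in adults (1.23 ± 0.38, adjusted p = 0.0195, 1 of 7 members higher against 10.6% of all genes), although the call ended without P0 replicate 2 (0.95, adjusted p = 0.0900), without adult replicate 1 (0.97, adjusted p = 0.0816) and with edgeR on recovered reads (1.45, adjusted p = 0.0930). Against E16, where the code differs too, adult Egr1 was higher by 1.52 ± 0.38 (adjusted p = 0.00349). With edgeR on recovered reads the difference was 1.66 (adjusted p = 0.0502).

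**Figure D1:**
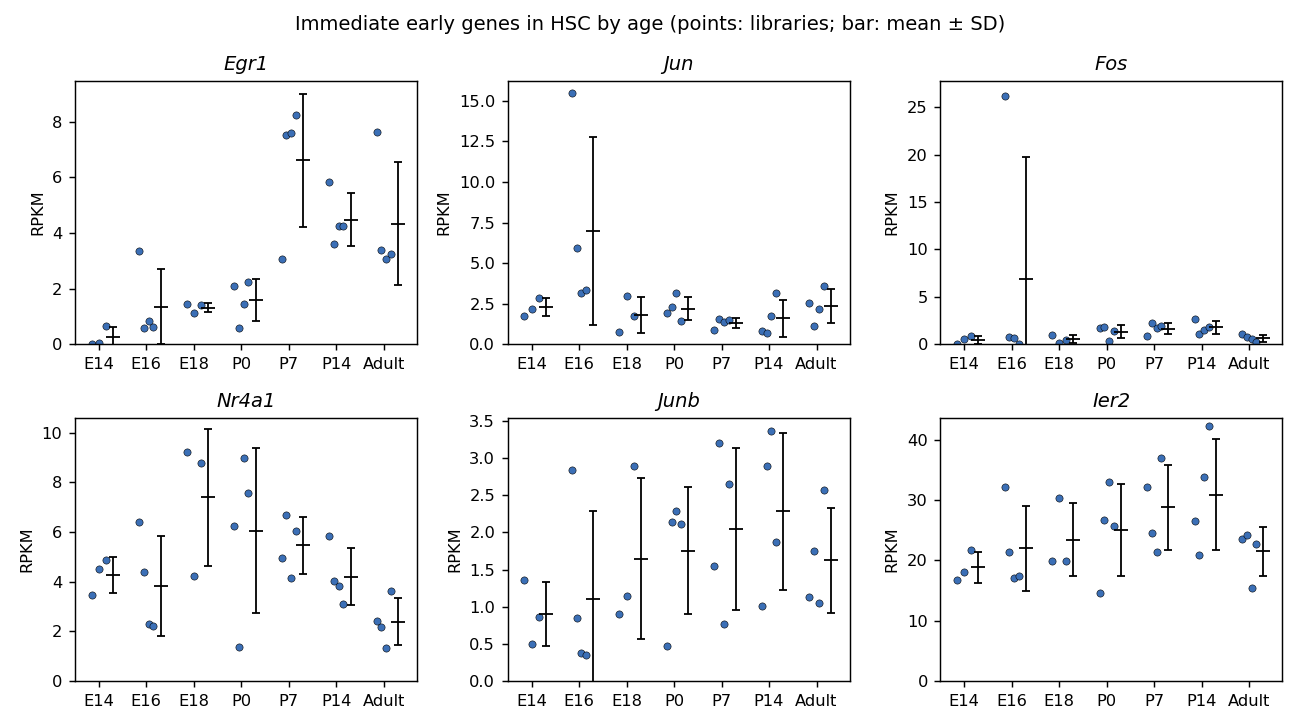
RPKM (linear axis) of members in HSC against age, with 1 point per library and bars for the mean ± SD (n = 3 or 4 libraries per age; bars are clipped at 0). Egr1 lies between 3.06 and 8.26 RPKM from P7 onward and between 0.585 and 2.24 at P0, and the first E16 library is the top point of its group in each panel.

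Jun, the main DNA-binding partner of AP-1, was highest at E16. The 4 E16 libraries held 15.5, 5.92, 3.17 and 3.34 RPKM, the E18 libraries 0.757, 2.98 and 1.74 and the adult libraries 2.56, 1.13, 2.14 and 3.6. E16 and E18 did not overlap, while the highest adult library lay above 2 of the E16 libraries. From E16 to E18 Jun changed by -1.56 ± 0.43 (log2, SE; adjusted p = 0.0309 by limma), the only call among 7 members against 5.43% of all genes. Without the first E16 library the difference was -1.10 (adjusted p = 0.112), and the call also ended without E16 replicate 2, without E18 replicate 1 (-1.18, adjusted p = 0.180) or 3 (-1.60, adjusted p = 0.0624), with no filter on low values and with only these 2 groups in the fit. From E16 to adults Jun was lower by 1.18 ± 0.40 (adjusted p = 0.03), and with Egr1 it made 2 calls of 7 members against 24.5% of all genes. That difference was -0.73 without the first E16 library (adjusted p = 0.170), and 5 of 8 left-out libraries ended the call. E16 and adult libraries also differ in title code, so code and age cannot be told apart.

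Fos, the inducible partner of Jun, showed in HSC how much a single library can hold. At E16 the 4 libraries had 26.1, 0.718, 0.667 and 0 RPKM. In every other HSC group of the age series Fos lay between 0 and 2.7 RPKM. The first E16 library thus lay far above every other HSC library of that series. In the genotype series, wild-type P0 HSC replicates 4 and 5 had 30.4 and 26.4 RPKM of Fos, computed from counts. The other wild-type libraries there had 4.94 to 7.51. By limma no contrast of ages was called for Fos in HSC, with log2 differences of -1.10 to 1.20 and SEs of 0.72 or 0.77. By edgeR on recovered reads adults were lower than E16 (-3.42, adjusted p = 0.0362). Nr4a1 reached 9.21, 4.22 and 8.76 RPKM at E18 and 6.26, 1.36, 8.98 and 7.59 at P0, against 2.43, 2.16, 1.32 and 3.6 in adults. The adult values lay below all but 1 of the P0 values, and the difference was -0.99 ± 0.38 (adjusted p = 0.0656). It passed without P0 replicate 2, the low one (-1.51, adjusted p = 0.00111), without adult replicate 4 (-1.19, adjusted p = 0.0413) and with edgeR on recovered reads (-1.33, adjusted p = 0.0310). Ier2 stayed between 14.6 and 42.3 RPKM in all 26 HSC libraries. Junb and Jund, which form less active AP-1 dimers than Jun, ranged from 0.353 to 3.37 and from 0.491 to 2.86 RPKM, with no call at any age.

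The remaining contrasts of ages in HSC had no called member. From E14 to E16, limma called 0 of 7 members (2 at an unadjusted p under 0.05) against 0.0523% of all genes. From E18 to P0 it called 0 of 7 (0 unadjusted) against 4.75%, from P7 to P14 0 of 7 (0 unadjusted) against 1.71%, and from P14 to adults 0 of 7 (0 unadjusted) against 5.33%. The edgeR test on recovered reads also called 0 members in each of these 4. Counts for other genes of the same response stand beside the shares of all genes called, 5.94% from P0 to P7 and 24.5% from E16 to adults. From P0 to P7, 2 of 9 tested early response transcription factors outside the members rose and 2 fell (median -0.11, against -0.01 over all genes), 1 of 21 other early response genes fell and 0 rose (median -0.34), and no AP-1 partner, upstream regulator or heat shock gene was called by limma. Bhlhe40, an early response repressor of the clock and of lymphoid genes, rose from E16 to E18 by 2.31 ± 0.37 on the log2 scale (adjusted p = 0.000256), fell from E18 to P0 by 2.23 ± 0.37 (adjusted p = 0.000516) and rose again from P0 to P7 by 3.10 ± 0.34 (adjusted p = 1.27e-06). Between E16 and adults, 3 of 9 tested early response transcription factors outside the members rose and 1 fell (median 0.38, against 0.02 over all genes), among them Myc, a driver of growth, which was higher by 1.5 ± 0.15 (adjusted p = 1e-08). Of 21 other early response genes, 6 rose and 2 fell (median 0.34), and Btg2, an antiproliferative gene, fell by 2.15 ± 0.27 (adjusted p = 6.16e-07). Of 10 AP-1 partners 3 rose and 0 fell (median 0.47), led by Batf2, an interferon-responsive AP-1 partner, at 1.74 ± 0.30 (adjusted p = 6.59e-05). Of 20 upstream regulators 2 rose and 2 fell (median 0.10), and of 9 heat shock genes 2 rose and 1 fell (median 0.07). The counts from E16 to adults are close to or somewhat above the share over all genes and are a description only. Title code and age cannot be told apart from E18 to P0, P0 to P7, P14 to adults or E16 to adults.

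In HPC, the 1 member called between ages with all groups in the fit was Fos, in adults. Counts are given for HPC as CPM scaled by TMM, edgeR's correction for composition. The 4 adult libraries had 6.7, 1.09, 55.3 and 17.8 CPM of Fos, and the 5 P14 libraries had 4.44, 5.62, 2.34, 3.16 and 1.25. Adult replicates 3 and 4 were high, the second was below all P14 libraries, and the groups overlapped. Fos was higher in adults by 2.58 ± 0.72 on the log2 scale (5.99-fold, edgeR quasi-likelihood adjusted p = 0.0115), 1 of 8 members tested against 28.9% of all 14754 genes. The 4 progenitor markers summed to 2712 to 3745 CPM in adults and 4267 to 18392 CPM at P14, and their part in the Fos difference was not tested. The call rested on the third adult library: without it the difference was 1.35 ± 0.67 (adjusted p = 0.143). Fosb followed Fos in that library, at 2.14 CPM against 0.734, 0 and 0.631 in the other adults, as did Jun at 19.5 CPM against 6.02, 2.41 and 12.3, and Egr1 at 10.4 CPM against 3.96, 3.01 and 2.93.

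**Figure D2:**
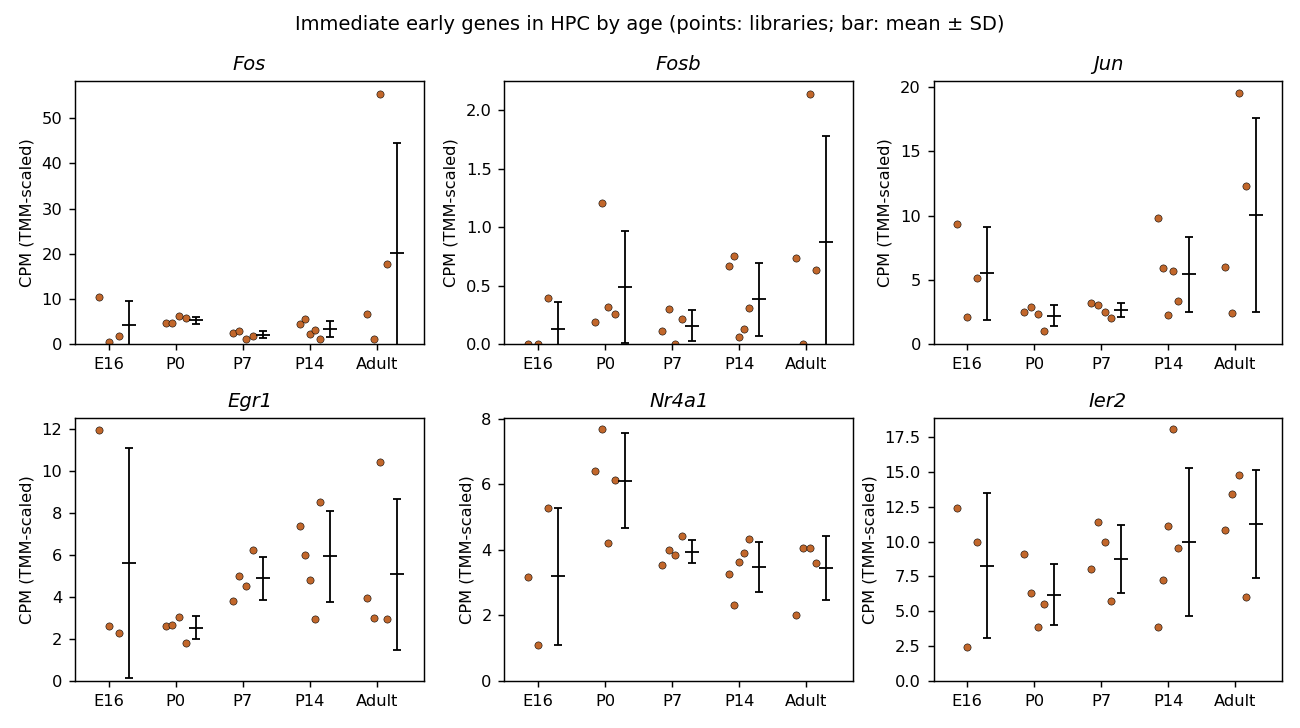
TMM-scaled CPM (linear axis) of members in HPC against age, with 1 point per library and bars for the mean ± SD (n = 3 to 5 libraries; bars are clipped at 0). A single adult library is the top point of its group for Fos (55.3 CPM), Fosb, Jun and Egr1, and Fos at the other ages stays at or under 10.4 CPM.

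Between the other ages of HPC no member was called with all groups in the fit. Egr1 ran from 1.79 to 3.06 CPM at P0, from 3.84 to 6.26 at P7 and from 2.95 to 8.54 at P14, with log2 differences of 0.93 ± 0.47 (adjusted p = 0.44) and 0.26 ± 0.43 (adjusted p = 0.758). P0 and P7 did not overlap for Egr1, and a fit on those 2 groups alone called both Egr1 (0.93, adjusted p = 0.0408) and Fos (-1.31, adjusted p = 0.0155). Nr4a1 had 6.4, 7.7, 4.21 and 6.13 CPM at P0, and 3.18, 1.11 and 5.28 at E16. The difference from E16 to P0 was 0.98 ± 0.37 (adjusted p = 0.16) and was called only without E16 replicate 3 (1.51, adjusted p = 0.0353). The edgeR test called 0 of 8 members from E16 to P0 (4 at an unadjusted p under 0.05) against 3.27% of all genes, 0 from P0 to P7 (1 unadjusted) against 1.5%, 0 from P7 to P14 (0 unadjusted) against 9.84% and 0 from E16 to adults (2 unadjusted) against 27.0%. DESeq2 also called 0 in each of these 4. From E16 to adults Fos was higher by 2.22 ± 0.86 (adjusted p = 0.0584), and it passed without E16 replicate 1 (4.22, adjusted p = 0.00803), where the E16 libraries had 10.4, 0.492 and 1.79 CPM. Each HPC age has its own title code, so code and age cannot be told apart.

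Between P14 and adults, 28.9% of all genes were called in HPC, and the counts for other genes of the response lie around that share. Of 13 AP-1 partners tested, 3 rose and 0 fell (median 0.37, against 0.04 over all genes), with Batf2 at 0.90 ± 0.20 (adjusted p = 0.00249). Of 12 other early response transcription factors 2 rose and 3 fell (median -0.18). Nfil3, a basic leucine zipper repressor, fell by 1.27 ± 0.34 (adjusted p = 0.00876) and Bhlhe40 rose by 1.17 ± 0.33 (adjusted p = 0.0123). Of 22 other early response genes 4 rose and 1 fell (median 0.26), including the survival kinase Pim1 at 0.93 ± 0.16 (adjusted p = 0.000356). Of 20 upstream regulators 6 rose and 2 fell (median 0.17), and of 9 heat shock genes 3 rose and 0 fell (median 0.12), led by the co-chaperone Bag3 at 1.90 ± 0.36 (adjusted p = 0.00079). Without TMM factors the median of all genes was 0.26 in this comparison, and the Fos call held there.

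Set against HPC of the same age, HSC of the age series held more Ier2 at all 5 ages, more Nr4a1 at 4 and more Egr1 at P7, P14 and in adults. For this comparison HPC counts were divided by gene length and library total, so both are in TMM-scaled RPKM and the test is limma's. The title codes and the deposited unit differ between HSC and HPC at every age, so these cannot be told apart from the cell type. Ier2 ran from 16.8 to 31.5 RPKM in E16 HSC and from 1.63 to 8.47 in E16 HPC. At P14 the ranges were 20.5 to 41 in HSC and 2.62 to 12.3 in HPC, and in adults 15.2 to 24.3 and 4.15 to 10.1. HSC and HPC did not overlap in any of these. The log2 differences for Ier2 were 2.04 ± 0.38 at E16, 2.39 ± 0.35 at P0, 2.15 ± 0.35 at P7, 2.16 ± 0.34 at P14 and 1.43 ± 0.35 in adults, with adjusted p values of 0.000104, 8.08e-07, 5.24e-06, 1.73e-06 and 0.00187. No alternative or left-out library ended any of the 5 calls. In the genotype series, described below, the P0 difference had the opposite sign (-0.86).

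Egr1 did not differ detectably between the cell types at E16 (0.02 ± 0.39, adjusted p = 0.989) or at P0 (0.83 ± 0.36, adjusted p = 0.0672), where it passed without HSC replicate 2 (1.11, adjusted p = 0.0203). It was higher in HSC at P7 by 2.02 ± 0.36 (adjusted p = 2.02e-05), at P14 by 1.4 ± 0.35 (adjusted p = 0.0012) and in adults by 1.51 ± 0.36 (adjusted p = 0.00141). At P7, HSC ran from 3.08 to 7.98 RPKM and HPC from 0.881 to 1.46. The change from P0 to P7 was larger in HSC than in HPC by 1.19 ± 0.52, which did not pass (adjusted p = 0.35), so the postnatal step of Egr1 is not shown to differ between the cell types. Nr4a1 was higher in HSC at E16 (1.22 ± 0.37, adjusted p = 0.0134), P0 (0.86 ± 0.34, adjusted p = 0.044), P7 (1.42 ± 0.34, adjusted p = 0.000862) and P14 (1.21 ± 0.32, adjusted p = 0.00277). The E16 call ended without the first E16 HSC library (0.96, adjusted p = 0.0695) and the P0 call in 6 of 8 left-out libraries. Junb was higher in HSC at P0 (1.33 ± 0.37, adjusted p = 0.00385), P7 (1.08 ± 0.37, adjusted p = 0.0178) and P14 (1.10 ± 0.35, adjusted p = 0.0112), and 3 of 8 left-out libraries ended the P7 call. The P14 call ended without HSC replicate 3 (0.93, adjusted p = 0.0551). The HPC side of these Junb differences rests on few reads: 5 to 13 per library at P0, 6 to 33 at P7 and 9 to 32 at P14. With only the compared groups in the fit, Junb did not pass the filter on low values at P0 or P7 and was not tested.

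Jun was higher in HSC at E16 (1.54 ± 0.46, adjusted p = 0.0119; without the first E16 HSC library 1.09, adjusted p = 0.0809) and at P0 (1.11 ± 0.42, adjusted p = 0.0354), where 4 of 8 left-out libraries ended the call (lowest difference 0.93, adjusted p = 0.112). Fos was the member with the opposite sign, lower in adult HSC than in adult HPC by 2.26 ± 0.76 (adjusted p = 0.0219). Adult HSC held 0.216 to 1.01 RPKM of Fos and adult HPC 0.486 to 24.3, and without the third adult HPC library the difference was -1.51 (adjusted p = 0.145). In all, 3 of 7 members were called at E16 against 23.1% of 14317 genes, 4 at P0 against 38.6%, 4 at P7 against 41.2%, 4 at P14 against 37.1% and 3 in adults against 28.5%, all higher in HSC but for Fos in adults. Jund was not called at any age, with log2 differences of -0.16 to 0.14. The difference between the cell types in the change between ages was tested in 5 contrasts, and limma called 0 of 7 members in each (at an unadjusted p under 0.05, 1 from E16 to P0, 1 from P0 to P7, 0 from P7 to P14, 1 from P14 to adults and 3 from E16 to adults). Of all genes, 1.41%, 0.587%, 2.51%, 5.83% and 4.15% were called in these.

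Other genes of the response are given for P0, where 38.6% of all genes were called, a share that the list counts lie near or above. Of 21 other early response genes 8 were higher in HSC and 0 lower (median 0.63, against 0.00 over all genes). Plk2, a stress-induced kinase, was higher by 2.02 ± 0.33 (adjusted p = 5.04e-06) and Ppp1r15a, which ends the integrated stress response, by 1.23 ± 0.21 (adjusted p = 6.84e-06). Of 20 upstream regulators 10 were higher and 1 lower (median 0.44), including Nab2, a corepressor of the Egr proteins, at 1.51 ± 0.28 (adjusted p = 3.38e-05). Of 11 AP-1 partners 4 were higher and 1 lower (median 0.27), and of 9 other early response transcription factors 3 were higher and 2 lower (median -0.16). Of 9 heat shock genes 2 were higher and 5 lower (median -0.47).

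The genotype series gave a second, separate look at P0 wild-type HSC and HPC, and several members had the opposite sign there. Ier2 had 29.7, 28.1, 24.5, 41 and 26.6 CPM in HSC against 42.7, 44.7, 61.5 and 63.3 in HPC. All HPC libraries lay above all HSC libraries, and the log2 difference was -0.86 ± 0.18 (edgeR adjusted p = 0.000345). Junb had 1.5 to 3.57 CPM in HSC and 5.69 to 9.52 in HPC (-1.77 ± 0.32, adjusted p = 9.16e-05), and Jund was lower in HSC by 0.81 ± 0.25 (adjusted p = 0.00991; without wild-type HPC replicate 1 the difference was -0.64, adjusted p = 0.0525). Fos had 12.8, 11.6, 17.7, 71.5 and 62.1 CPM in HSC against 3.79, 1.44, 9.77 and 6.72 in HPC (2.66 ± 0.81, adjusted p = 0.0089), where the age series gave -0.77 ± 0.76. Egr1 (2.31 ± 0.45), Nr4a1 (2.48 ± 0.56) and Jun (0.96 ± 0.28) were higher in HSC, the same sign as at P0 in the age series, and Fosb was higher by 2.59 ± 0.85. Of 9 members tested 5 were higher and 3 lower, against 29.0% and 25.3% of all 17191 genes. Heat shock genes also changed sign between the series, with 5 of 9 higher and 2 lower in HSC (median 0.67). P0 HPC themselves differed between the series. In the age series they had 3.89 to 9.13 CPM of Ier2 and 0.319 to 0.683 of Junb, far below the HPC ranges here. Fos was similar there, at 4.61 to 6.19 CPM. In the genotype series the run code in the titles differs between the cell types, so run and cell type cannot be told apart. Whether run, or the difference between the HPC sets, moves the signs was not tested.

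**Figure D3:**
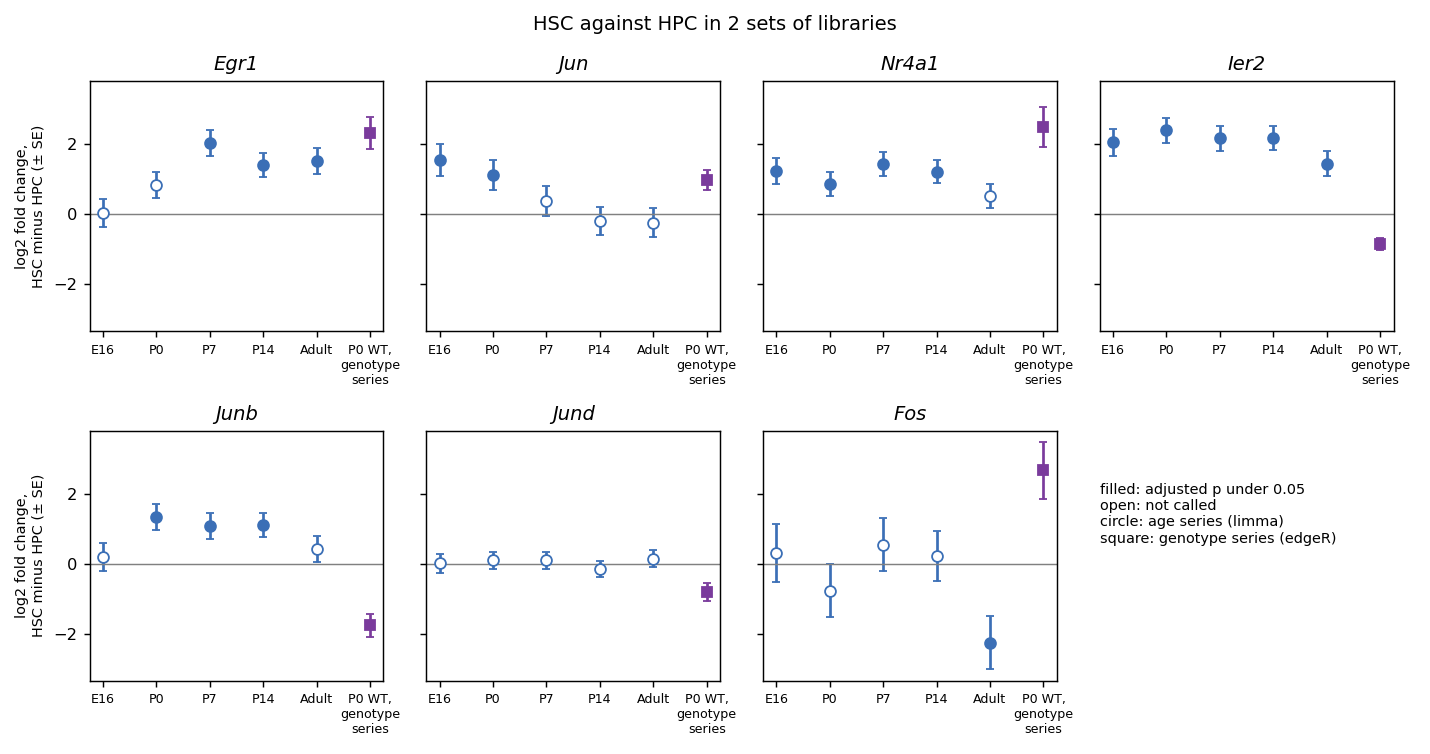
Log2 fold change of HSC over HPC (± SE) for 7 members at each age of the age series (circles) and at P0 in the wild type of the genotype series (squares), with filled symbols for an adjusted p under 0.05. Ier2 lies at 1.43 to 2.39 in the age series and at -0.86 in the genotype series, and Junb and Fos also change sign at P0.

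At P0, loss of Ifnar went with higher Jun in HPC and with no called member in HSC. In P0 HPC, Jun had 3.57, 3.46, 3.17 and 5.3 CPM in the wild type and 13.5, 17.1, 15.1 and 12.7 in Ifnar -/-. Every Ifnar -/- library was above every wild-type library by more than the range within either group. The difference was 1.91 ± 0.23 on the log2 scale (3.76-fold, edgeR adjusted p = 0.000197), 1 of 7 members tested against 10.4% of all 12988 genes. It held under every alternative and without any 1 library (1.83 to 2.10). Junb had 7.94, 5.9, 9.22 and 10 CPM in the wild type and 19.4, 21.6, 10.2 and 8.5 in Ifnar -/- (0.85 ± 0.30, adjusted p = 0.0918), and Ier2 ran from 43.8 to 66.7 and from 65.9 to 102 CPM (0.53 ± 0.18, adjusted p = 0.076). DESeq2 called both (adjusted p = 0.0405 for Junb and 0.0299 for Ier2). Egr1 ran from 1.89 to 5.51 and from 4.43 to 11.5 CPM (1.07 ± 0.41, adjusted p = 0.114).

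The second Ifnar -/- HPC library was the highest of its group for 6 of 8 members, with 29.3 CPM of Fos against 3.25 to 4.92 in the other 3 and 28 CPM of Nr4a1 against 4.33 to 10.5. Jun was not set by it: the other 3 libraries had 12.7 to 15.1 CPM. Summed markers of cell types moved with genotype in the same P0 HPC libraries. The 4 progenitor markers summed to 1715 to 2286 CPM in Ifnar -/- and 3689 to 4121 in the wild type, the 8 macrophage markers to 35 to 84.1 and 127 to 154, the 3 B cell markers to 1.63 to 3.91 and 13.8 to 27.8, and the 3 T and NK cell markers to 31.5 to 53.7 and 65 to 108. Summed stroma markers were 4.06 to 14.9 against 1.13 to 2.68 CPM. A sum need not hold for each marker. Flt3, a progenitor marker, had a median of 637 CPM (381 to 665) in Ifnar -/- and 587 (478 to 988) in the wild type. The part of these shifts in the Jun difference was not tested, and in bulk RNA fewer cells of a type and less RNA per cell cannot be told apart. Among the other genes of the response, 2 of 11 early response transcription factors fell and 0 rose (median 0.01, as over all genes), with Nfil3 at -2.25 ± 0.39 (adjusted p = 0.00288) and Crem, a CREB family modulator, at -0.69 ± 0.20 (adjusted p = 0.0467). Of 21 other early response genes 3 rose and 0 fell (median 0.11): Gadd45a (0.94 ± 0.24, adjusted p = 0.028) and Gadd45g (1.68 ± 0.48, adjusted p = 0.0437), both growth arrest genes, and Trib1, a pseudokinase that promotes degradation of C/EBPα (1.08 ± 0.31, adjusted p = 0.04). None of 12 AP-1 partners and none of 20 upstream regulators was called (0 at adjusted p under 0.05), and of 9 heat shock genes 1 rose and 1 fell.

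**Figure D4:**
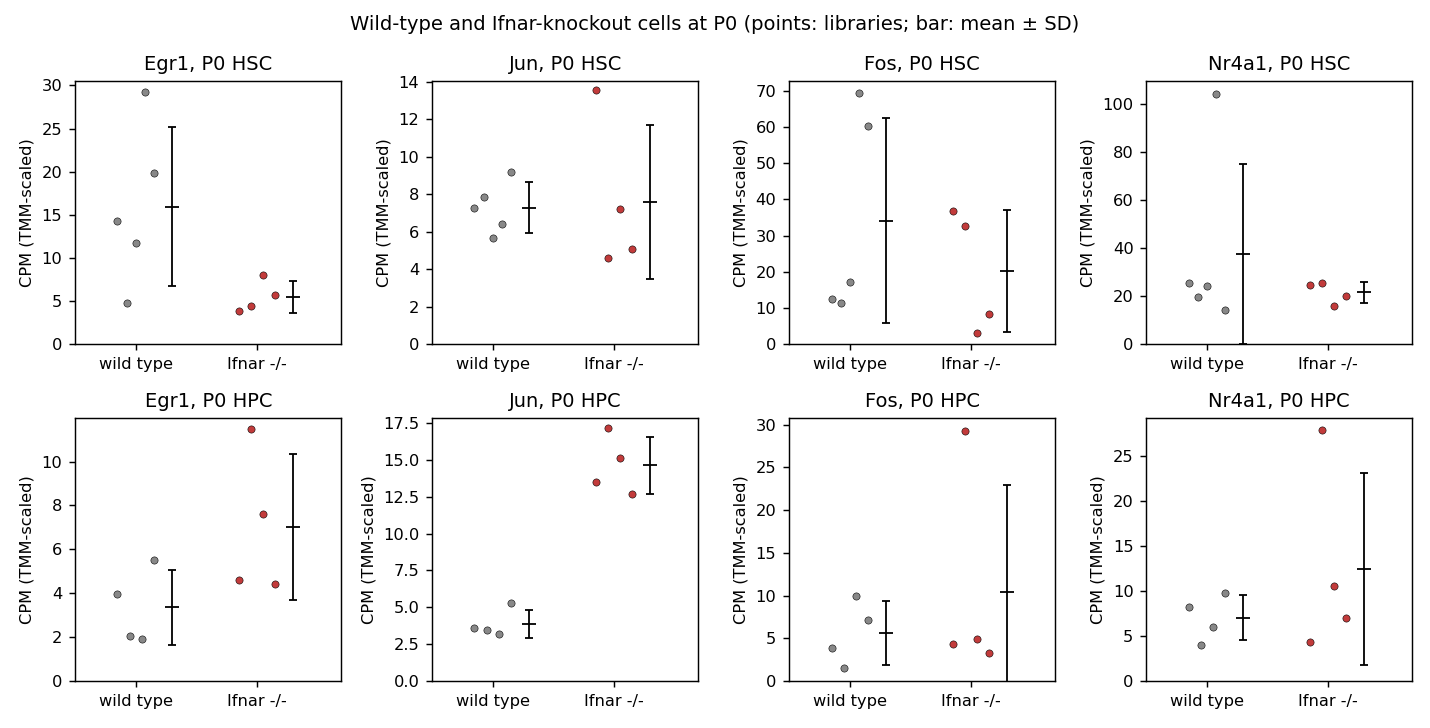
TMM-scaled CPM (linear axis) of Egr1, Jun, Fos and Nr4a1 in P0 HSC (top) and P0 HPC (bottom), wild type and Ifnar -/-, with 1 point per library and bars for the mean ± SD (n = 4 or 5; bars are clipped at 0). Jun in HPC is the 1 panel in which the genotypes do not overlap: 3.17 to 5.3 CPM against 12.7 to 17.1.

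In P0 HSC, Egr1 was the member with the smallest p. It had 14.3, 4.78, 11.7, 29.2 and 19.8 CPM in the wild type and 3.85, 4.41, 8.07 and 5.71 in Ifnar -/-. In all, 4 of 5 wild-type libraries lay above all Ifnar -/- libraries, and replicate 2 lay among them. The difference was -1.52 ± 0.40 (edgeR adjusted p = 0.137). It passed with no filter on low values (-1.53, adjusted p = 0.0196) and without wild-type replicate 2 (-1.75, adjusted p = 0.00997). Fos had 12.4, 11.3, 17.2, 69.3 and 60.1 CPM in the wild type and 36.8, 32.6, 3.2 and 8.24 in Ifnar -/- (-0.74 ± 0.68, adjusted p = 0.776), so both groups held high and low libraries. Nr4a1 reached 104 CPM in wild-type replicate 4 against 14.4 to 25.3 in the other 4, and lay at 16 to 25.3 in Ifnar -/-. Jun had 5.65 to 9.21 CPM in the wild type and 4.59 to 13.6 in Ifnar -/- (0.07 ± 0.28, adjusted p = 0.956). The edgeR test called 0 of 9 members (1 at an unadjusted p under 0.05) and DESeq2 called 0, against 1.14% of all 16224 genes. Of 12 AP-1 partners 1 fell, Batf2 (-1.07 ± 0.21, adjusted p = 0.0175), and no gene of the other 4 lists was called by edgeR.

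The response of Jun and of Egr1 to Ifnar genotype differed between the cell types. In a joint fit of all 17 P0 libraries, the Ifnar -/- difference in HSC less that in HPC was -1.83 ± 0.39 for Jun (edgeR adjusted p = 0.0179) and -2.58 ± 0.62 for Egr1 (adjusted p = 0.0362), 2 of 9 members against 1.7% of all genes. For Jun the test passed without any 1 of the 17 libraries and in each alternative (adjusted p 0.000608 to 0.0464). For Egr1, 9 of the 17 left-out libraries ended the call, with differences of -2.90 to -2.22 throughout and an adjusted p of up to 0.101. Each cell type has its own run code, so a run that acted differently on the genotypes cannot be told apart from the cell type.

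In P14 HPC, Flt3 ITD went with less Egr1 on both Ifnar backgrounds, and with no other called member. On Ifnar +/-, the Flt3 +/+ libraries had 3.26, 4.64, 4.35 and 4 CPM of Egr1 and the Flt3 ITD/+ libraries 0.446, 1.1, 0.804 and 0.63. On Ifnar -/-, the Flt3 +/+ libraries had 5.38, 5.52, 3.84 and 9.38 CPM and the Flt3 ITD/+ libraries 0.956, 0.4, 0.615, 1.2 and 0.877. All 9 ITD libraries lay below all 8 Flt3 +/+ libraries. Egr1 was 5.3-fold lower on Ifnar +/- (log2 difference -2.41 ± 0.36, edgeR adjusted p = 0.00107), 1 of 8 members tested against 4.84% of all 17464 genes. It was 7.39-fold lower on Ifnar -/- (-2.89 ± 0.33, adjusted p = 6.71e-05), 1 of 8 members against 0.962%. Under the alternatives and without any 1 library the differences were -2.66 to -2.22 and -3.07 to -2.58, and the interaction with Ifnar was -0.48 ± 0.47 (adjusted p = 0.514).

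**Figure D5:**
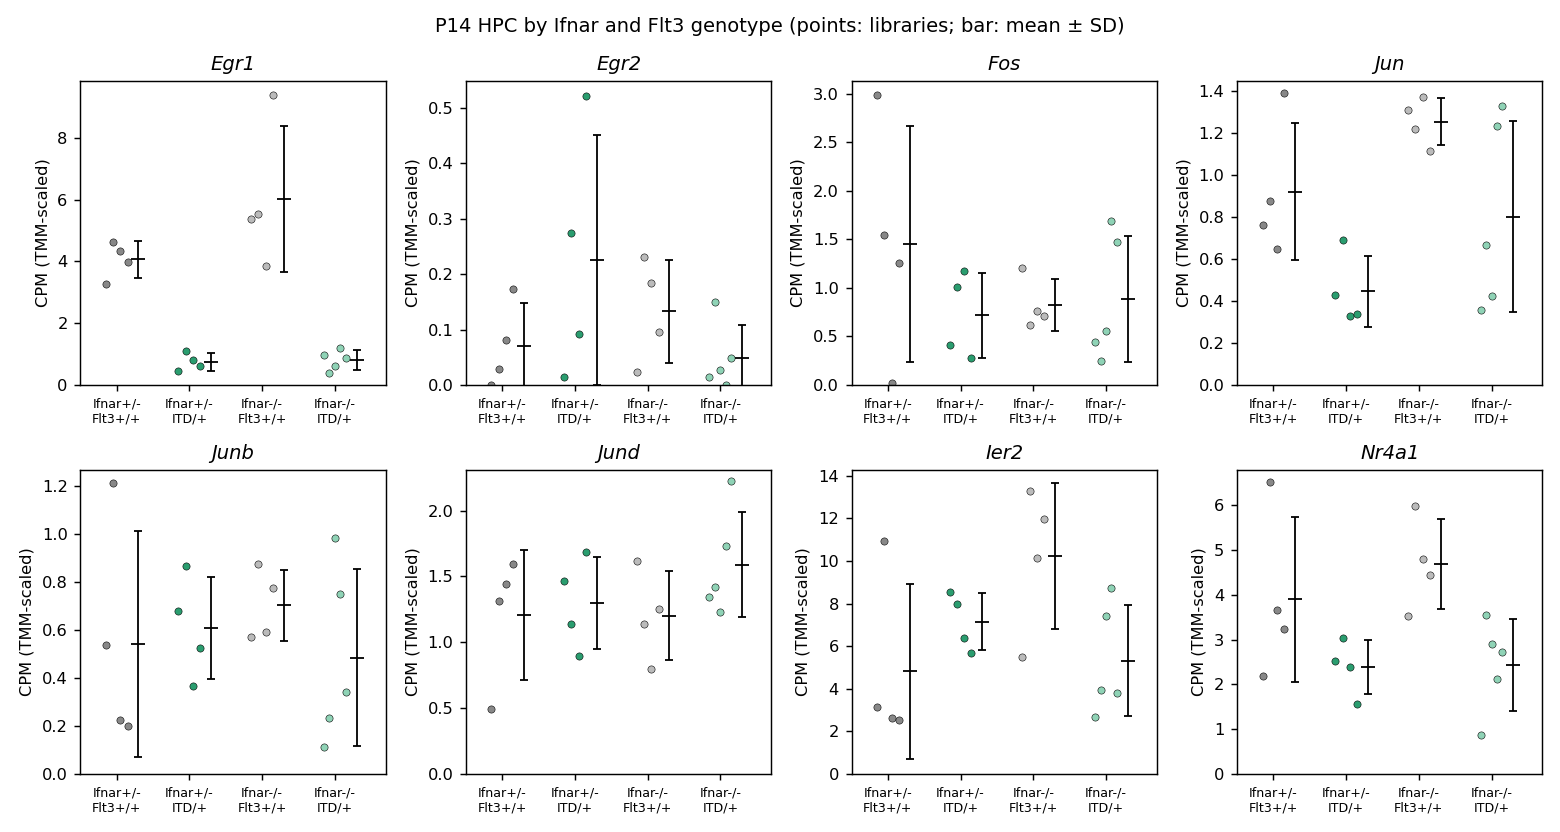
TMM-scaled CPM (linear axis) of members in P14 HPC by Ifnar and Flt3 genotype, with 1 point per library and bars for the mean ± SD (n = 4 or 5; bars are clipped at 0). Egr1 lies at 0.4 to 1.2 CPM in the 9 Flt3 ITD/+ libraries and at 3.26 to 9.38 CPM in the 8 Flt3 +/+ libraries, and Ier2 has a single high library among the Ifnar +/- Flt3 +/+ group.

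Both Ifnar +/- Flt3 +/+ libraries that stood apart were close to the others for Egr1, at 3.26 CPM (replicate 1, high in Mpo) and 4.64 CPM (replicate 2, high in Flt3). The 9 HSC markers summed to 1375 to 1629 CPM in Ifnar +/- ITD against 827 to 2505 CPM in Ifnar +/- Flt3 +/+, and to 1383 to 2030 CPM in Ifnar -/- ITD against 1889 to 2669 in Ifnar -/- Flt3 +/+. On Ifnar -/- these sums overlap little. Reads of Flt3 itself ran from 125 to 448 CPM in Ifnar -/- ITD and from 609 to 1030 in Ifnar -/- Flt3 +/+. On Ifnar +/- they ran from 433 to 547 CPM in ITD and from 104 to 1090 (median 134) in Flt3 +/+. Flt3 thus went opposite ways by median on the Ifnar backgrounds, and the Flt3 +/+ groups were unlike each other. The part of the marker sums and of Flt3 in the Egr1 difference was not tested. Jun pointed the same way as Egr1 without passing: 0.431, 0.692, 0.329 and 0.338 CPM in Ifnar +/- ITD against 0.765, 0.879, 0.65 and 1.39 (-1.00 ± 0.43, adjusted p = 0.133), and -0.63 ± 0.39 on Ifnar -/- (adjusted p = 0.53). Nr4a1 did so too, at -0.68 ± 0.38 (adjusted p = 0.237) and -0.94 ± 0.35 (adjusted p = 0.319). Fos stayed at or under 2.98 CPM in all 17 libraries and Junb at or under 1.21 CPM.

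Ier2 in this series turned on 1 library. The Ifnar +/- Flt3 +/+ libraries had 3.14, 10.9, 2.62 and 2.53 CPM, the Ifnar +/- ITD libraries 8.54, 8, 6.36 and 5.7, the Ifnar -/- Flt3 +/+ libraries 5.49, 13.3, 10.2 and 12, and the Ifnar -/- ITD libraries 2.67, 3.94, 7.42, 8.73 and 3.8. Replicate 2 of the first group, the library with 1090 CPM of Flt3, lay far above its group for Ier2 but within the range of the Ifnar -/- Flt3 +/+ libraries. Those libraries had 609 to 1030 CPM of Flt3, so by Flt3 too replicate 2 was nearer to them than to its own group. With all libraries no contrast of Ier2 was called: 0.60 ± 0.46 for ITD on Ifnar +/- (adjusted p = 0.393), 1.11 ± 0.46 for Ifnar -/- against Ifnar +/- with Flt3 +/+ (adjusted p = 0.119) and -1.54 ± 0.63 for the interaction (adjusted p = 0.123). Without that library these became 1.44 ± 0.38 (adjusted p = 0.00826), 1.95 ± 0.39 (adjusted p = 0.00107) and -2.39 ± 0.49 (adjusted p = 0.00232). The Ifnar +/- Flt3 +/+ libraries kept in those fits had 104 to 161 CPM of Flt3, far below the Ifnar -/- Flt3 +/+ libraries. The part of this difference in the Ier2 calls was not tested. The Ifnar contrasts had no called member with all libraries: edgeR called 0 of 8 with Flt3 +/+ (1 at an unadjusted p under 0.05) against 4.39% of all genes, 0 of 8 with Flt3 ITD/+ (0 unadjusted) against 4.03%, and 0 of 8 for the interaction (1 unadjusted) against 0.0115%. DESeq2 also called 0 in each of these 3.

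Some other genes of the early response were called in ITD cells, beside 4.84% of all genes on Ifnar +/- and 0.962% on Ifnar -/-. Bhlhe40 rose by 1.80 ± 0.32 on Ifnar +/- (adjusted p = 0.00441) and by 2.89 ± 0.33 on Ifnar -/- (adjusted p = 6.05e-05), and Nfil3 by 0.84 ± 0.22 (adjusted p = 0.0389) and 1.33 ± 0.21 (adjusted p = 0.00234). Myc rose by 1.10 ± 0.24 on Ifnar +/- (adjusted p = 0.0187), which made 3 higher and 0 lower of 12 early response transcription factors there (median -0.20, against -0.01 over all genes) and 2 higher and 0 lower on Ifnar -/- (median 0.13). Of 25 other early response genes 1 rose and 3 fell on Ifnar +/- (median -0.34) and 0 were called on Ifnar -/-. Pim1, a target of STAT5 signalling, rose by 1.23 ± 0.22 (adjusted p = 0.0039), while Trib1 fell by 1.20 ± 0.25 (adjusted p = 0.0134) and Dusp2, a MAP kinase phosphatase, by 0.86 ± 0.20 (adjusted p = 0.0244). Of 20 upstream regulators 1 was called on Ifnar +/-, Nab2 at -1.15 ± 0.30 (adjusted p = 0.0377), and 0 on Ifnar -/-. None of 14 AP-1 partners and none of 9 heat shock genes was called in either comparison (0 at adjusted p under 0.05). Between Ifnar -/- and Ifnar +/- with ITD, Myc was lower by 1.27 ± 0.23 (adjusted p = 0.00314) and Trib1 higher by 1.24 ± 0.25 (adjusted p = 0.00672).

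Among themselves the members varied in very different degrees between libraries of the same group. Fos had a within-group SD of 1.79 on the log2 CPM scale in HSC of the age series and 1.38 in HPC, against a median over all genes of 0.40 and 0.33. Ranked among all genes, the within-group SD of Fos stood at the 99.1 percentile in HSC and 99.5 in HPC, and at 99.0, 98.8 and 97.3 in P0 HSC, P0 HPC and P14 HPC of the genotype series. In the same order of libraries, Ier2 stood at 47.3, 86.6, 36.9, 54.8 and 77.1, and Jund at 65.3, 48.5, 55.5, 66.2 and 63.6. Among the 1000 genes closest in level, Ier2 stood at the 87.2 percentile in HSC of the age series and 98.1 in HPC, and Jund at 22.2 and 7.5. Across the 26 HSC libraries of all ages, the 21 pairs of members had a median Pearson correlation of 0.19, and across the 20 HPC libraries the 28 pairs had 0.20. The closest partners were Junb and Ier2 in both (0.61 in HSC and 0.73 in HPC), followed in HPC by Fos with Jun (0.67) and Fosb with Fos (0.66). By correlation with the mean of the members' standardized log values, the most similar genes were Ankrd50 (0.79), Smarcd2 (0.69) and Btg1 (0.68) in HSC, and Trmt44 (0.85), Rfx1 (0.82) and Fam98a (0.75) in HPC. Age differences enter these correlations, libraries share a depth across all genes, and no test was made.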

How the data were processed

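The 80 bulk RNA-seq libraries fall into 20 groups from the labels. In the first deposited table the HSC columns hold RPKM, although the table carries the name of counts, and the authors deposited raw read counts for HPC and for all libraries of the second table. The submitters' processing notes name STAR (3.0.4), Subread and featureCounts (1.4.5), and the genome build is not given in the sources used here. In all, 1 deposited column matched no sample and was not used, and 2 rows that are not mouse genes were left out (at most 0.000144% of reads). Whole reads were recovered from the RPKM for 25622 of 25622 detected genes, with 100% of nonzero values whole within 1e-05. Lengths equal those of GENCODE M21 for 16638 genes, while those of Egr3, Fosb, Junb, Jund and Nr4a1 came from the values, so their HSC minus HPC differences assume the same length behind the HPC counts.

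HSC ages, and HSC against HPC in the age series, went into limma 3.58.1, whose moderated test used a mean-variance trend and robust estimation. Its input was log2 of RPKM after TMM scaling, with a pseudocount of 0.5, and genes needed more than 1 RPKM in a number of libraries equal to the smallest group's size. Fold changes are on that scale, which understates changes of low genes. Counts were tested with edgeR 4.0.16 (quasi-likelihood F test, TMM, filterByExpr) in R 4.3.3, and the SE is the log2 difference divided by the square root of F. Benjamini-Hochberg adjustment ran over all genes tested, with 0.05 as the threshold. DESeq2 1.42.0 and edgeR on recovered reads were among the alternatives. Printed levels are the deposited RPKM for HSC ages, TMM-scaled RPKM where HSC and HPC of the age series are compared, and TMM-scaled CPM computed from the counts elsewhere; depth limits the low members most. The members, the gene lists and the tests were chosen with earlier results of these data known, the members are named in every comparison, and up to 3 called genes of smallest adjusted p are named per list. The 6 tests of differences between cell types were added later. The fits were tested on reads simulated with the same spread setting for every gene. Among genes with ample reads they recovered 47 to 65% of 2-fold and 93 to 100% of 4-fold changes. Members were not simulated at their own spread, which for Fos was among the largest of all genes, so a member not called may still have changed.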

Additional observations from a re-analysis of the deposited data

Results flagged for a closer look

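In groups of 4 or 5 libraries, 10 of 131 combinations of member and group had a library whose distance to its nearest neighbour took up most of the group's range on the log2 scale. Chance gives about 1 in 20 such groups. In HSC of the age series, on log2(RPKM + 0.5), Egr1 stood high in E16 replicate 1 (1.95, or 3.36 RPKM) and adult replicate 1 (2.96, or 7.64 RPKM) and low in P7 replicate 1 (1.87, or 3.07 RPKM). Junb was low in P0 replicate 1 (-0.046, or 0.474 RPKM) and Jund high in adult replicate 1 (1.69, or 2.86 RPKM). On the log2 CPM scale, Nr4a1 was low in adult HPC replicate 1 (1.08, or 2.01 CPM) and high in wild-type P0 HSC replicate 4 of the genotype series (6.71, or 104 CPM), where Egr2 was low (-2.07, or 0.191 CPM). In P14 HPC with Ifnar +/- and Flt3 +/+, Jund was low in replicate 1 (-0.95, or 0.49 CPM) and Ier2 high in replicate 2 (3.45, or 10.9 CPM).

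The Ifnar -/- difference at P0 was lower in HSC than in HPC by a test of that difference for Egr1 (log2 -2.58, edgeR adjusted p = 0.0362) and for Jun (-1.83, adjusted p = 0.0179). The Egr1 call ended in 9 of 17 left-out libraries and the Jun call in 0. Run code and cell type cannot be told apart here.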

How the results depend on the processing

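Counts of called members stayed within 1.5 times of the reported count in 130 of 144 alternative settings and 197 of 235 left-out libraries. Called members kept their direction in all 527 refits and their call in 186 of 203 settings and 281 of 324 left-out libraries. With no filter on low values, the count became 0 for HSC E18 minus E16, 1 for HSC adult minus E16, 1 for HPC adult minus E16, 1 for P0 HSC by Ifnar, and 2 for HSC minus HPC at P0. With only the compared groups, it became 0 for HSC E18 minus E16, 1 for HSC adult minus E16, 2 for HPC P7 minus P0, and 1 and 2 for HSC minus HPC at E16 and P0. DESeq2 gave 3 for P0 HPC by Ifnar. The causes were not tested.

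No clear pairing of libraries by replicate number was seen, and weak pairing is not excluded. Deviations of same-numbered libraries correlated at -0.10 to 0.07 in HSC of the age series (median -0.01) and -0.22 to 0.19 in HPC (median -0.02). In the genotype series they correlated at -0.01 to 0.10 in P0 HSC (median 0.06), -0.06 to 0.13 in P0 HPC (median 0.01) and -0.09 to 0.23 in P14 HPC (median 0.02). Not every pair exceeded 0.1 in any of these sets. Partial pairing could also give that, and each P0 set held only 4 such pairs. With the replicate block the count became 0 for HSC E18 minus E16, 0 for HPC adult minus P14 and 1 for the difference between cell types in the P0 Ifnar contrast, whose alternatives were chosen after seeing the data. In P0 wild-type HSC minus HPC of the genotype series the block ended the call of Fosb (1.79, adjusted p = 0.0908).

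With 1 library left out, counts ranged from 0 to 1 for HSC E18 minus E16, 1 to 2 for HSC adult minus E16, 0 to 2 for HSC adult minus P0, 0 to 1 for HPC P0 minus E16, 0 to 2 for HPC adult minus P14 and for HPC adult minus E16, 0 to 1 for P0 HSC by Ifnar, 1 to 3 for P0 HPC by Ifnar, 1 to 2 for Flt3 ITD on Ifnar +/-, 0 to 1 for Ifnar with Flt3 +/+ and for the interaction, 1 to 3 and 2 to 4 for HSC minus HPC at E16 and P0, and 1 to 2 for the P0 difference between cell types.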
